A study of Mus musculus with 12 samples.

Results

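The serine, glycine and folate enzymes were followed in RNA-seq of mouse hippocampal cultures after knockdown (KD) of the long non-coding RNA *Neuid*. They comprised 10 genes chosen by symbol for their steps: *Phgdh*, *Psat1* and *Psph* for L-serine synthesis, *Srr* for D-serine synthesis, *Shmt1* and *Shmt2* for the exchange of serine and glycine, *Gldc*, *Amt* and *Gcsh* for glycine cleavage, and *Aldh1l1* for the folate pool. The choice was made with earlier results of these data known, so shares of the 10 set beside all tested genes are descriptions only. All 10 were present among the 55471 gene columns of the count table, and all 10 were among the 19578 genes that passed the filter on low counts and were tested.

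Both groups were wild-type (WT) primary hippocampal cultures from CD1 mouse embryos of mixed-sex litters. Lipid nanoparticles carrying a gapmer were added at 7 days in vitro (DIV) and RNA was isolated at DIV 10. A gapmer is a short antisense oligonucleotide through which RNase H cuts the matching RNA. The control group received a negative control gapmer and the *Neuid* KD group a single gapmer sequence against *Neuid*, with 6 libraries per group, and the comparison asked how the loss of *Neuid* changed gene expression. The labels name the cells as neurons, and the sources used here do not say whether the 6 libraries of a group came from separate cultures, so the p-values measure the spread between these libraries, which may be technical.

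L-serine is made from a glycolytic intermediate by the enzymes *Phgdh*, *Psat1* and *Psph* in sequence. In the brain this synthesis takes place mainly in astrocytes, and neurons take up the serine they supply, which serine racemase (*Srr*) turns into D-serine, a co-agonist of NMDA receptors. Serine hydroxymethyltransferases move a carbon unit from serine to tetrahydrofolate and release glycine, and the glycine cleavage system of mitochondria breaks glycine down and loads another carbon unit onto tetrahydrofolate. *Aldh1l1* takes 10-formyltetrahydrofolate out of the cytosolic pool and is widely used as an astrocyte marker.

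*Aldh1l1* rose 2.48-fold and *Gldc*, the glycine-decarboxylating subunit of the cleavage system, rose 1.499-fold in *Neuid* KD libraries. *Psat1* and the cleavage subunits *Amt* and *Gcsh* were higher by smaller amounts, with an adjusted p under 0.05 and a log2 fold change under 0.5. *Phgdh* had a log2 fold change of 0.67 that did not pass the test, and *Psph*, *Srr*, *Shmt1* and *Shmt2* did not pass it either. A gene was called changed at an adjusted p under 0.05 (edgeR quasi-likelihood test, Benjamini-Hochberg over all 19578 genes) and an absolute log2 fold change above 0.5. By this rule 2 of the 10 enzymes were called higher, where 2.44% of all tested genes were, and 0 were called lower, where 0.792% were. At any fold change, 5 of the 10 had an adjusted p under 0.05 and were higher, against 6.31% of all tested genes, and 0 were lower, against 2.42%. This count of 5 fell to 3 without control replicate 6, *Neuid* KD replicate 3 or *Neuid* KD replicate 5, to 3 with library totals alone, with no filter on low counts or with TMM factors over all genes, and to 1 with offsets for GC content and length. The count rose to 6 with DESeq2, with or without 1 factor for unwanted variation. It was also 6 in edgeR with 1 or 2 such factors or with a measure of background reads as a covariate. At an unadjusted p under 0.05, still 0 of the 10 were lower by edgeR, and DESeq2 and limma voom also called 0 lower. In 3 of the 10 the *Neuid* KD libraries all lay above the control libraries, as in 4.13% of all tested genes, and in 0 the reverse held, as in 1.57%. The log2 fold change was positive in 9 of the 10 and in 44.4% of all tested genes, and its median was 0.31 over the 10 enzymes and -0.03 over all tested genes.

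*Neuid* itself, annotated as *Gm10419*, averaged 28.4 ± 2.03 CPM (SD, n = 6; CPM is reads scaled to library size by TMM factors) with the control gapmer and 8.05 ± 1.13 CPM (SD, n = 6) with its own gapmer. This was a log2 fold change of -1.81 (SE 0.0845; adjusted p = 1.32e-10, edgeR quasi-likelihood test) with no overlap between the groups. Counted reads ranged from 18002585 to 30914714 per control library and from 11152556 to 30573480 per *Neuid* KD library. Reads on 1780 olfactory, vomeronasal and bitter taste receptor genes, taken as a measure of background reads, summed to 26.0 to 653 CPM per control library and 26.9 to 604 CPM per *Neuid* KD library. They were at 100 CPM or above in 4 control and 3 *Neuid* KD libraries, called the higher-background libraries, and under it in 2 control and 3 *Neuid* KD libraries, called the lower-background libraries. Within the higher-background libraries 3 of the 10 enzymes were called higher (*Aldh1l1*, *Gldc* and *Amt*; 2.26% of all tested genes), and within the lower-background libraries 1 was (*Aldh1l1*; 2.85% of all tested genes).

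Markers of cell types were read beside the enzymes. Of all tested genes 2.44% were called higher and 0.792% lower. Of 14 tested astrocyte markers, which do not include *Aldh1l1*, 10 were called higher, 14 had a positive log2 fold change and the median was 0.93. The summed level of the list ranged from 1910 to 2391 CPM in control and from 3490 to 4225 CPM in *Neuid* KD libraries, and of the 15 listed only *Gjb6* was under the filter. None of 16 neuronal markers was called in either direction, their median log2 fold change was -0.01, and their sum ranged from 7897 to 9280 CPM in control and from 7745 to 9289 CPM in *Neuid* KD libraries. Of 8 markers of oligodendrocyte precursors 3 were called higher, and the sum ranged from 102 to 121 CPM in control and from 253 to 299 CPM in *Neuid* KD libraries. The 3 were *Olig1* at a log2 fold change of 1.47, *Olig2* at 1.67 and *Lhfpl3* at 0.54. For *Lhfpl3* the groups overlapped (edgeR, adjusted p = 0.0499). Most of the sum was *Olig1*, whose mean went from 78.2 to 216 CPM, so the sum does not describe the list as a whole. The median log2 fold change of the 8 was 0.30. Of 5 tested markers of myelinating oligodendrocytes 1 was called lower, and markers of microglia, endothelial cells, fibroblasts and mural cells, and cycling cells had 0 calls. No marker of any list was at 0 in all libraries, but 7 of 10 microglia markers and 4 of 6 endothelial markers averaged under 1 CPM. Tested were 5 of the microglia and 4 of the endothelial markers. Whether reads at such levels were background reads was not tested. The astrocyte list held reads in every library of both groups, and in these bulk libraries more cells of a type and more RNA per cell cannot be told apart. The part of these marker levels in the values of the enzymes was not tested.

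**Figure D1:**
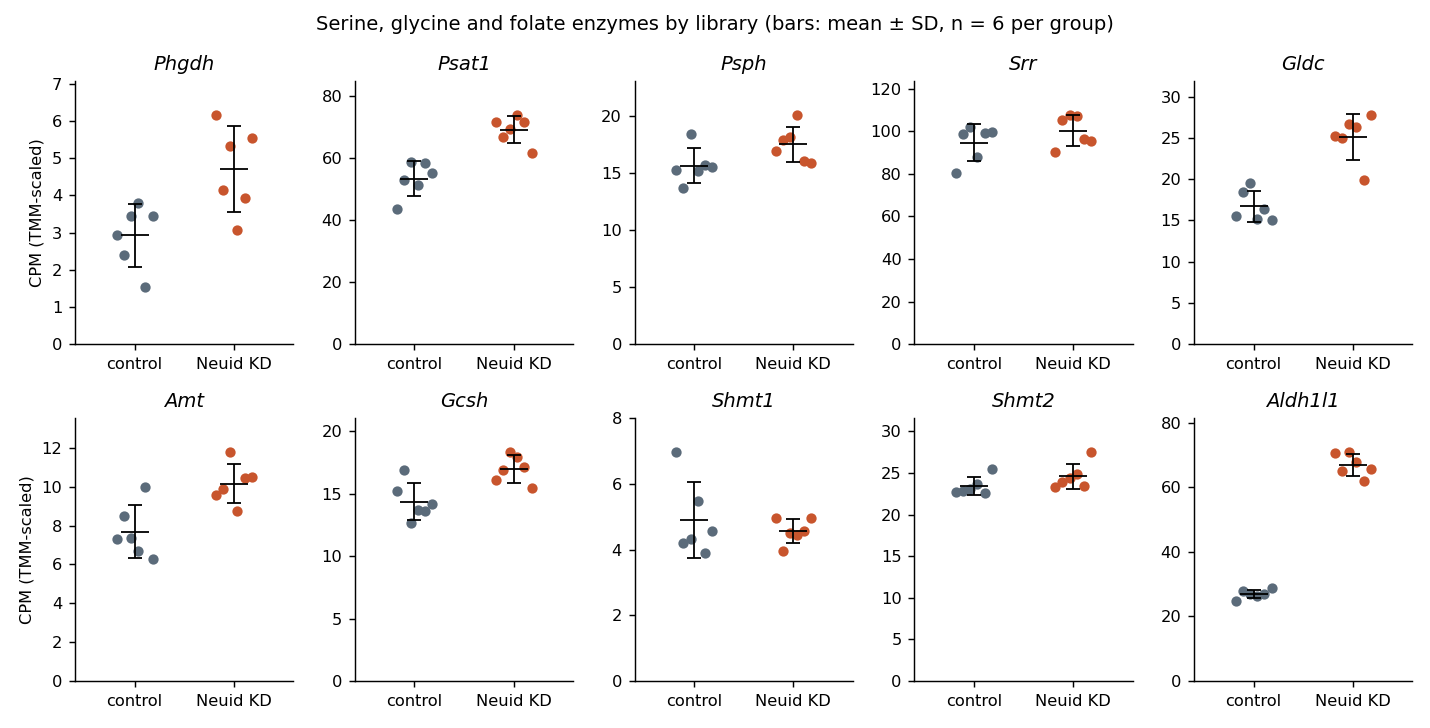
Level of each of the 10 enzymes in every library, in CPM on an axis from 0, for 6 control and 6 *Neuid* KD libraries (points) with mean ± SD (bars). The groups are apart for *Aldh1l1*, *Gldc* and *Psat1* and overlap for the other 7 enzymes.

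Levels between genes were compared per kilobase of merged exons. In control libraries the order from the highest was *Srr* at 20.8 ± 1.88 CPM per kb (SD, n = 6), *Psat1* at 12.5, *Gcsh* at 9.10, *Shmt2* at 7.53, *Aldh1l1* at 5.99, *Psph* at 3.61, *Amt* at 3.16, *Gldc* at 2.74, *Shmt1* at 1.26 and *Phgdh* at 1.18. Among the enzymes of L-serine synthesis *Psat1* thus stood above *Psph* and *Phgdh*, with ranges that did not meet. Neighbours whose ranges over the 6 libraries overlapped were *Psat1* and *Gcsh*, *Gcsh* and *Shmt2*, *Psph* and *Amt*, *Amt* and *Gldc*, and *Shmt1* and *Phgdh*. In *Neuid* KD libraries *Aldh1l1* came next after *Srr* and *Psat1* at 14.9 ± 0.760 CPM per kb (SD, n = 6), in a range that overlapped that of *Psat1* at 16.3 ± 1.02. *Phgdh* at 1.89 ± 0.467 CPM per kb stood above *Shmt1* at 1.18 ± 0.0976, with ranges that overlapped.

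**Figure D2:**
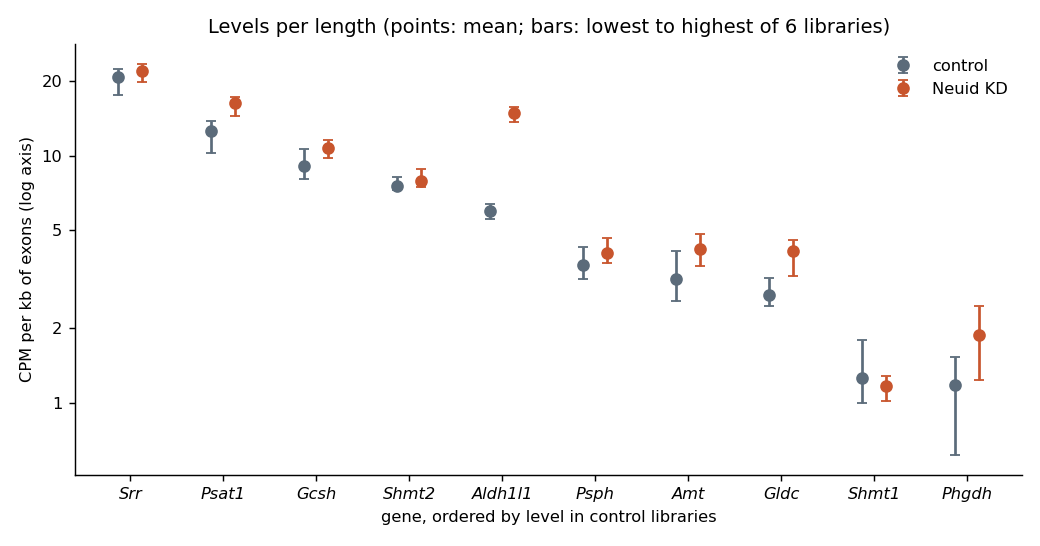
Mean level per kilobase of exons (points, log axis, CPM per kb) with the lowest and highest of 6 libraries (bars) for control and *Neuid* KD, ordered by the control level. *Srr* is highest in both groups, at 20.8 and 22.01, and *Aldh1l1* moves from 5.99 to 14.9.

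The entry enzyme of L-serine synthesis, *Phgdh* (phosphoglycerate dehydrogenase, ENSMUSG00000053398, chromosome 3, 98313170 to 98339990 on the minus strand, GRCm38), held 33 to 114 reads per library. In control libraries it ranged from 1.53 to 3.80 CPM with a median of 3.19, and in *Neuid* KD libraries from 3.08 to 6.15 CPM with a median of 4.74. The groups overlapped, with *Neuid* KD replicate 4 at 3.08 CPM below control replicates 3, 4 and 6, and control replicate 5 was the lowest library. The mean was 2.92 ± 0.841 in control and 4.70 ± 1.16 CPM in *Neuid* KD (SD, n = 6 each), a log2 fold change of 0.67 (SE 0.213, unadjusted p = 0.00618, adjusted p = 0.0651, edgeR quasi-likelihood test). The adjusted p was 0.0134 with DESeq2 and 0.00465 in edgeR with 1 RUVs factor, a factor estimated from the replicates for unwanted variation, so the call depended on the test.

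*Phgdh* has near-identical copies elsewhere in the genome, which bears on reads of 50 bases. Of the 2434 windows of 50 bases in its annotated transcripts, 1163 (47.8%) also occur in transcripts of 23 other genes, 19 of them processed pseudogenes, and *Gm7901* alone shares 38.3%. An example is given because it lies in the coding sequence and occurs letter for letter in 8 other genes, among them *Gm7901* and *Gm5320*. It covers positions 217 to 266 of the 1893 bases of Phgdh-201, whose coding sequence runs from 159 to 1757.
Phgdh-201 window: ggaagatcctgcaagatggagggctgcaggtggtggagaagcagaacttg
A read of these letters cannot be placed on 1 of the genes. The 23 genes together held 4.66 ± 3.598 CPM per control library (0.648 to 8.98) and 3.79 ± 2.75 CPM per *Neuid* KD library (0.655 to 7.16; SD, n = 6 each). Summed with *Phgdh* they gave 7.58 ± 4.01 and 8.49 ± 3.51 CPM, a log2 fold change of 0.14 (SE 0.337, edgeR quasi-likelihood test, adjusted p = 0.896). The sum holds all reads of the 23 genes, also of those that share few windows. *Gm5266*, for example, shares 0.329% and averaged 0.424 ± 0.529 CPM over control libraries, against 0.241 ± 0.202 CPM for *Gm7901* (SD, n = 6). The smaller fold change of the sum thus does not measure misplaced *Phgdh* reads. How reads of shared windows were counted is not known, so the value of *Phgdh* is uncertain. For the other 9 enzymes at most 1.90% of windows occurred in genes elsewhere.

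*Psat1* (phosphoserine aminotransferase, ENSMUSG00000024640, chromosome 19, 15904678 to 15947337 on the minus strand) carries out the middle step. It ranged from 43.5 to 58.8 CPM with a median of 54.0 in control and from 61.7 to 73.8 CPM with a median of 70.4 in *Neuid* KD libraries. All 6 *Neuid* KD libraries exceeded all 6 control libraries, and control replicate 1 was the lowest. The mean rose from 53.3 ± 5.66 to 69.2 ± 4.32 CPM (SD, n = 6 each), a log2 fold change of 0.37 (SE 0.0684, edgeR quasi-likelihood test, adjusted p = 0.00139), under the fold threshold. It was 0.44 within the higher-background and 0.23 within the lower-background libraries. With offsets for GC content and length it was 0.42 with a larger SE of 0.214 (edgeR quasi-likelihood test, adjusted p = 0.743).

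*Psph* (phosphoserine phosphatase, ENSMUSG00000029446, chromosome 5, 129765558 to 129787449 on the minus strand) completes L-serine synthesis. It ranged from 13.7 to 18.5 CPM (median 15.4) in control and from 15.9 to 20.04 CPM (median 17.4) in *Neuid* KD libraries, so the groups overlapped over much of their range. Its log2 fold change was 0.16 (SE 0.0753, 95% interval 0.02 to 0.31, edgeR quasi-likelihood test, adjusted p = 0.246). Of its windows 8.82% lie in *Cct6a* on the opposite strand.

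*Srr* (serine racemase, ENSMUSG00000001323, chromosome 11, 74906359 to 74925948 on the minus strand) was the most abundant of the 10 enzymes per length in both groups. It ranged from 80.3 to 102 CPM (median 98.8) in control and from 90.4 to 108 CPM (median 101) in *Neuid* KD libraries. The groups overlapped, with a log2 fold change of 0.09 (SE 0.0656, 95% interval -0.04 to 0.21, edgeR quasi-likelihood test, adjusted p = 0.594). Of its windows 21.7% lie in *Tsr1* on the opposite strand, so part of its reads may belong to that gene if strand was not used in counting.

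The balance of D-serine synthesis against the entry of L-serine synthesis was read as the ratio of *Srr* to *Phgdh* reads within each library, which needs no scaling between libraries. The log2 ratio was 5.06 ± 0.532 in control and 4.45 ± 0.445 in *Neuid* KD libraries (SD, n = 6 each), with overlapping ranges. The difference of -0.62 (95% interval -1.27 to 0.01) did not pass a two-sided exact permutation test (p = 0.0519, 0.104 adjusted over the 4 ratios tested). With 1 library left out, the p of this exact test, not adjusted over the 4 ratios, ranged from 0.013 to 0.104. It was under 0.05 in 2 of 12 cases, at 0.039 without control replicate 4 and 0.013 without *Neuid* KD replicate 4. The uncertainty of *Phgdh* reads carries over to this ratio.

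Serine and glycine are exchanged by *Shmt1* in the cytosol and *Shmt2* in mitochondria. *Shmt1* (ENSMUSG00000020534, chromosome 11, 60788104 to 60811718 on the minus strand) ranged from 3.89 to 6.97 CPM (median 4.45) in control and from 3.96 to 4.97 CPM (median 4.52) in *Neuid* KD libraries. The *Neuid* KD range lay within the control range, where control replicate 1 was highest. The log2 fold change was -0.10 (SE 0.141, 95% interval -0.38 to 0.17, edgeR quasi-likelihood test, adjusted p = 0.81), and it was 0.02 without control replicate 1.

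*Shmt2* (ENSMUSG00000025403, chromosome 10, 127517123 to 127522444 on the minus strand) ranged from 22.6 to 25.5 CPM (median 23.0) in control and from 23.3 to 27.5 CPM (median 24.2) in *Neuid* KD libraries. The groups overlapped, and the 95% interval of its log2 fold change of 0.07 (SE 0.0531) was -0.03 to 0.18 (edgeR quasi-likelihood test, adjusted p = 0.579). The log2 ratio of *Shmt1* to *Shmt2* reads was -2.28 ± 0.318 in control and -2.42 ± 0.124 in *Neuid* KD libraries (SD, n = 6 each). It differed by -0.15 (95% interval -0.45 to 0.12; two-sided exact permutation test, p = 0.353, 0.353 adjusted over the 4 ratios).

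Glycine cleavage was represented by its 3 dedicated subunits, and in all 3 the adjusted p was under 0.05 with a higher level in *Neuid* KD libraries, as in 6.31% of all tested genes. With offsets for GC content and length none of the 3 passed the edgeR test, with an adjusted p of 0.0769 for *Gldc*, 0.708 for *Amt* and 0.729 for *Gcsh*. The log2 fold changes with these offsets were 0.61 (SE 0.168), 0.47 (SE 0.237) and 0.36 (SE 0.185) in the same order. The estimates were not smaller than in the fit reported, and their SEs were larger. *Gldc* encodes the P protein, the pyridoxal phosphate-dependent decarboxylase that starts the reaction (ENSMUSG00000024827, chromosome 19, 30098447 to 30175429 on the minus strand). It ranged from 15.1 to 19.5 CPM with a median of 15.98 in control and from 19.9 to 27.7 CPM with a median of 25.8 in *Neuid* KD libraries. The groups did not overlap, by a margin set by *Neuid* KD replicate 5 at 19.85 CPM against control replicate 3 at 19.48 CPM. The mean rose from 16.7 ± 1.86 to 25.1 ± 2.78 CPM (SD, n = 6 each), a log2 fold change of 0.58 (SE 0.0851, edgeR quasi-likelihood test, adjusted p = 0.00014). It was 0.60 within the higher-background libraries and 0.498 within the lower-background libraries, where the adjusted p was 0.000191 and the value was just under the fold threshold.

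*Amt*, the aminomethyltransferase or T protein that passes the carbon unit to tetrahydrofolate (ENSMUSG00000032607, chromosome 9, 108296853 to 108302302 on the plus strand), held 114 to 255 reads per library. It ranged from 6.28 to 9.99 CPM with a median of 7.35 in control and from 8.74 to 11.8 CPM with a median of 10.2 in *Neuid* KD libraries. The groups overlapped through control replicate 5 at 9.99 CPM, while the other 5 control libraries were below every *Neuid* KD library. *Amt* had a log2 fold change of 0.40 (SE 0.107, edgeR quasi-likelihood test, adjusted p = 0.0234). It was 0.52 within the higher-background libraries (edgeR, adjusted p = 0.0196) and 0.20 within the lower-background libraries (edgeR, adjusted p = 0.514), and leaving out control replicate 4 or 6 or *Neuid* KD replicate 3 or 5 brought the adjusted p over 0.05, to 0.0661 at most.

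*Gcsh*, the lipoate-carrying H protein that shuttles the aminomethyl group between the other subunits (ENSMUSG00000034424, chromosome 8, 116981810 to 116993537 on the minus strand), showed the smallest difference of the 3. It ranged from 12.7 to 16.9 CPM with a median of 13.9 in control and from 15.4 to 18.3 CPM with a median of 17.0 in *Neuid* KD libraries. The groups overlapped, with control replicate 2 at 16.9 CPM within the *Neuid* KD range. This gave a log2 fold change of 0.25 (SE 0.071, edgeR quasi-likelihood test, adjusted p = 0.0383), and leaving out 1 library brought the adjusted p over 0.05 in 9 of 12 cases, to 0.0951 at most. It was 0.13 within the higher-background libraries (edgeR, adjusted p = 0.678) and 0.41 within the lower-background libraries (edgeR, adjusted p = 0.0112).

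The P and T proteins were compared within libraries. The log2 ratio of *Gldc* to *Amt* reads was 1.13 ± 0.232 in control and 1.30 ± 0.227 in *Neuid* KD libraries (SD, n = 6 each), with overlapping ranges. A difference between these subunits was not resolved (0.18, 95% interval -0.11 to 0.47; two-sided exact permutation test, p = 0.229, 0.306 adjusted over the 4 ratios). The fourth subunit, *Dld*, is shared with other mitochondrial dehydrogenase complexes and differed by 0.10 on the log2 scale (adjusted p = 0.369, edgeR quasi-likelihood test). Of 7 genes for *Dld* and for the attachment of lipoate, 0 were called in either direction, where 2.44% of all tested genes were called higher and 0.792% lower. *Bola3*, an iron-sulfur cluster assembly factor, had an adjusted p under 0.05, at 0.25 on the log2 scale (adjusted p = 0.0317, edgeR quasi-likelihood test).

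*Aldh1l1* (cytosolic 10-formyltetrahydrofolate dehydrogenase, ENSMUSG00000030088, chromosome 6, 90486427 to 90600203 on the plus strand) showed the largest log2 fold change of the 10 enzymes. It ranged from 24.9 to 28.9 CPM with a median of 27.1 in control and from 62.0 to 71.0 CPM with a median of 66.9 in *Neuid* KD libraries. The groups were far apart, and no library lay between them. The mean rose from 27.0 ± 1.32 to 67.1 ± 3.43 CPM (SD, n = 6 each), a log2 fold change of 1.31 (SE 0.0496, edgeR quasi-likelihood test, adjusted p = 9.46e-12). It was 1.30 within the higher-background libraries and 1.30 within the lower-background libraries. Of the 14 tested astrocyte markers 5 had a larger log2 fold change than *Aldh1l1* and 9 a smaller one. The antisense gene *Gm15756* overlaps *Aldh1l1* and holds 8.80% of its windows.

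The mitochondrial enzyme of the same reaction, *Aldh1l2*, averaged 26.9 ± 2.08 CPM over control and 24.2 ± 1.02 CPM over *Neuid* KD libraries (SD, n = 6 each). Its log2 fold change was -0.15 (SE 0.0569, edgeR quasi-likelihood test, adjusted p = 0.121). The log2 ratio of *Aldh1l1* to *Aldh1l2* reads was 0.01 ± 0.117 in control and 1.47 ± 0.113 in *Neuid* KD libraries (SD, n = 6 each), with no overlap between the groups. The difference was 1.46 (95% interval 1.31 to 1.61), with p = 0.002165 in the two-sided exact permutation test, which is the lowest value possible with 6 against 6, and 0.00866 adjusted over the 4 ratios. Reads of the cytosolic and the mitochondrial dehydrogenase were thus near equal in control libraries and unequal in *Neuid* KD libraries. These reads were not scaled by length. Per kilobase of exons the control means were 5.99 ± 0.292 CPM for *Aldh1l1* and 3.59 ± 0.278 CPM for *Aldh1l2* (SD, n = 6).

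**Figure D3:**
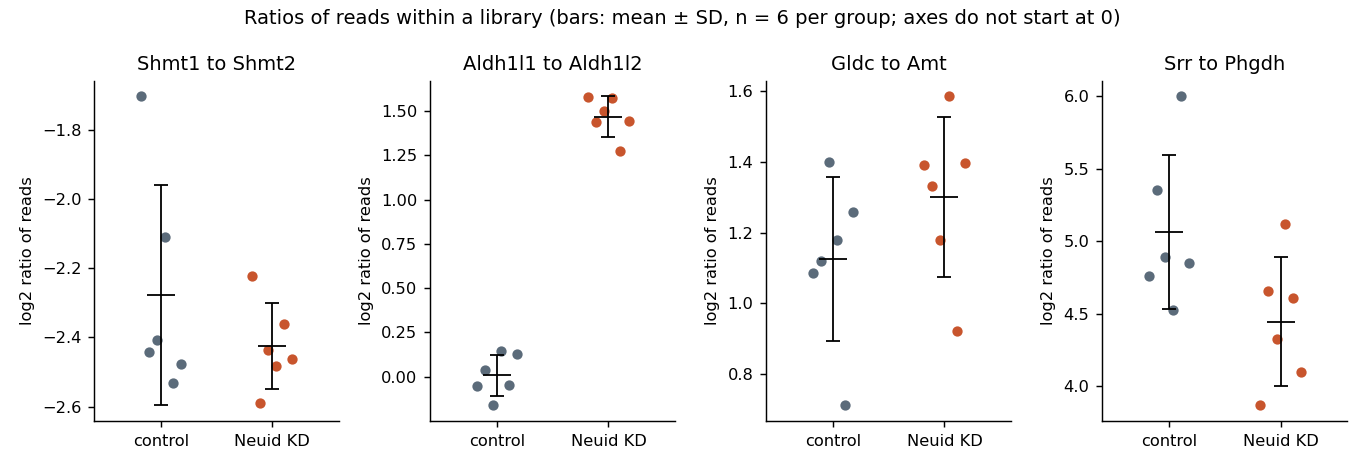
Log2 ratio of reads of 2 genes within each library (points), with mean ± SD (bars), for 6 control and 6 *Neuid* KD libraries; the axes do not start at 0. The groups are apart for *Aldh1l1* to *Aldh1l2* and overlap for *Shmt1* to *Shmt2*, *Gldc* to *Amt* and *Srr* to *Phgdh*.

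The promoters of both enzymes called higher, and that of *Phgdh*, are shown so that their letters can be set beside the expression values. Each runs from 250 bases before to 50 bases after the RefSeq start on GRCm38.p6 and is written 5′ to 3′ on the gene's strand. Capitals mark TGACNNNGC, the core of the antioxidant response element, on either strand. That of *Aldh1l1* is at chr6:90550543-90550842 on the plus strand, inside the annotated span of the gene, that of *Gldc* at chr19:30175392-30175691 on the minus strand and that of *Phgdh* at chr3:98339920-98340219 on the minus strand.
Aldh1l1: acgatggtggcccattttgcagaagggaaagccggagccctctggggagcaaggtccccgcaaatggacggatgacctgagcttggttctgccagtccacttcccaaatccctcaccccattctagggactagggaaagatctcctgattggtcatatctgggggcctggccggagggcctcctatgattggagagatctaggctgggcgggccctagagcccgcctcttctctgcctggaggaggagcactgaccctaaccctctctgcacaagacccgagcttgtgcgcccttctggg
Gldc: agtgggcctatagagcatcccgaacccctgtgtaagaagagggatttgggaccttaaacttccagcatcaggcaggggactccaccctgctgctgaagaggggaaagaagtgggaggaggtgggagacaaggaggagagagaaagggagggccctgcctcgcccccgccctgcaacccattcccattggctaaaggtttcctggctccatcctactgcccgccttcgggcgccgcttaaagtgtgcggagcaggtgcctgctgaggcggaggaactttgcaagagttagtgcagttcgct
Phgdh: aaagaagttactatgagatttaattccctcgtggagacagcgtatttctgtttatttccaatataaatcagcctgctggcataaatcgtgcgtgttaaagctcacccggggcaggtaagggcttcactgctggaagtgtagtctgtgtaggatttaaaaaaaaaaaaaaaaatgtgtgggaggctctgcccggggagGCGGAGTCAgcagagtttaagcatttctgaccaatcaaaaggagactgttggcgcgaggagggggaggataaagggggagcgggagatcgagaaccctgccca
GC content was 60.0% for *Aldh1l1*, 59.0% for *Gldc* and 47.7% for *Phgdh*. TGACNNNGC was found on either strand in the promoters of *Phgdh*, *Psph* and *Amt*, and in 12.4% of the 32851 mouse promoters of the same length. The core of the C/EBP-ATF composite element, TGATGNAA, through which ATF4 acts on amino acid response genes, was in none of the promoters of the 10 enzymes and in 3.97% of all promoters, and the palindromic site of NFI factors was in none of them and in 0.0365% of all. CANNTG, the E-box, was in 72.3% of all promoters. Among the 10 enzymes those of *Aldh1l1*, *Gldc*, *Psph*, *Gcsh*, *Amt*, *Shmt1* and *Srr* hold it, and those of *Phgdh*, *Psat1* and *Shmt2* do not. These are matches of letters, and factor binding was not measured in these libraries.

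The genes around the 10 enzymes were read by list, beside the 2.44% of all tested genes called higher and the 0.792% called lower. In the folate cycle and one-carbon transfer, 17 genes were tested, 0 were called in either direction, and the median log2 fold change was -0.12. The 2 that had an adjusted p under 0.05 were higher: *Mthfd1*, the cytosolic enzyme that interconverts carbon-carrying folates, at 0.26 (edgeR, adjusted p = 0.00215) and *Ggh*, which trims the glutamate tail of folates, at 0.28 (edgeR, adjusted p = 0.0212). *Mthfd2*, a mitochondrial folate enzyme that follows *Shmt2*, did not pass the test (edgeR, adjusted p = 0.9995). Of 4 tested genes of folate uptake and transport 0 were called. Across the methionine cycle 0 of 7 were called, and the median was 0.05. The 2 genes of that cycle with an adjusted p under 0.05, both encoding relatives of adenosylhomocysteinase, went opposite ways, with *Ahcyl1* at 0.33 (edgeR, adjusted p = 0.00075) and *Ahcyl2* at -0.21 (edgeR, adjusted p = 0.0292).

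The list of serine and glycine transporters, which also holds carriers of other amino acids, had the 2 largest increases among the called genes of these lists. Of 12 tested transporters 2 were called higher and 0 lower, where 2.44% and 0.792% of all tested genes were. The median log2 fold change of the 12 was -0.01. *Slc7a10* (Asc-1), which exchanges D-serine, glycine and other small neutral amino acids, rose from 1.67 ± 0.438 to 6.12 ± 1.14 CPM (SD, n = 6 each; log2 fold change 1.87, SE 0.181, edgeR quasi-likelihood test, adjusted p = 1.29e-06). *Slc38a3*, a sodium-coupled transporter of glutamine and other amino acids, rose from 10.1 ± 1.70 to 41.9 ± 1.68 CPM (log2 fold change 2.05, SE 0.0851, edgeR quasi-likelihood test, adjusted p = 3.55e-11). For both genes the groups did not overlap. *Slc1a4*, a carrier of serine and alanine, differed by 0.38 on the log2 scale (edgeR, adjusted p = 0.000244), and *Slc6a9*, the glycine transporter GlyT1, by 0.15 (edgeR, adjusted p = 0.477). Lower levels with an adjusted p under 0.05 were those of *Sfxn1*, a mitochondrial serine carrier, at -0.18 (edgeR, adjusted p = 0.0421) and of its relative *Sfxn3* at -0.17 (edgeR, adjusted p = 0.0485), both short of the fold threshold.

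Among genes that use or break down serine and glycine, 13 of 19 were tested, and the median was 0.06. Of the 13, 3 were called higher and 1 lower, where 2.44% and 0.792% of all tested genes were. *Cbs*, which joins serine to homocysteine, rose from 13.5 ± 0.750 to 19.7 ± 1.88 CPM (SD, n = 6 each; log2 fold change 0.54, edgeR, adjusted p = 2.48e-05). *Cth*, which releases cysteine from the product of *Cbs*, rose from 1.79 ± 0.629 to 4.25 ± 0.974 CPM (log2 fold change 1.25, edgeR, adjusted p = 0.0023). *Gatm*, which joins glycine to arginine's amidino group in creatine synthesis, rose from 18.3 ± 2.33 to 40.1 ± 1.147 CPM (log2 fold change 1.13, edgeR, adjusted p = 5.73e-09). *Grhpr*, a reductase of glyoxylate and hydroxypyruvate, fell from 3.94 ± 0.579 to 2.39 ± 0.507 CPM (log2 fold change -0.72, edgeR, adjusted p = 0.0113), with overlapping groups. *Dao*, which oxidizes D-serine, was under the filter, with means of 0.523 CPM over control and 0.495 CPM over *Neuid* KD libraries.

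Several enzymes of serine synthesis are known targets of ATF4, and 16 amino acid response genes of this factor were read beside them. None was called higher, where 2.44% of all tested genes were, and 2 were called lower, where 0.792% were. The median log2 fold change of the 16 genes was -0.02. *Trib3*, a pseudokinase induced by ATF4, fell from 1.87 ± 0.246 to 0.616 ± 0.216 CPM (SD, n = 6 each; log2 fold change -1.58, edgeR, adjusted p = 0.00239). This gene held only 4 to 51 reads per library. *Slc7a11*, the cystine-glutamate exchanger, fell from 10.9 ± 2.17 to 7.33 ± 1.19 CPM (log2 fold change -0.57, edgeR, adjusted p = 0.00963), and the groups overlapped. *Asns*, asparagine synthetase, differed by -0.23 on the log2 scale (edgeR, adjusted p = 0.0289) and *Atf4* itself by 0.06 (edgeR, adjusted p = 0.606). *Psat1*, itself a known ATF4 target, had the log2 fold change of 0.37 given above.

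**Figure D4:**
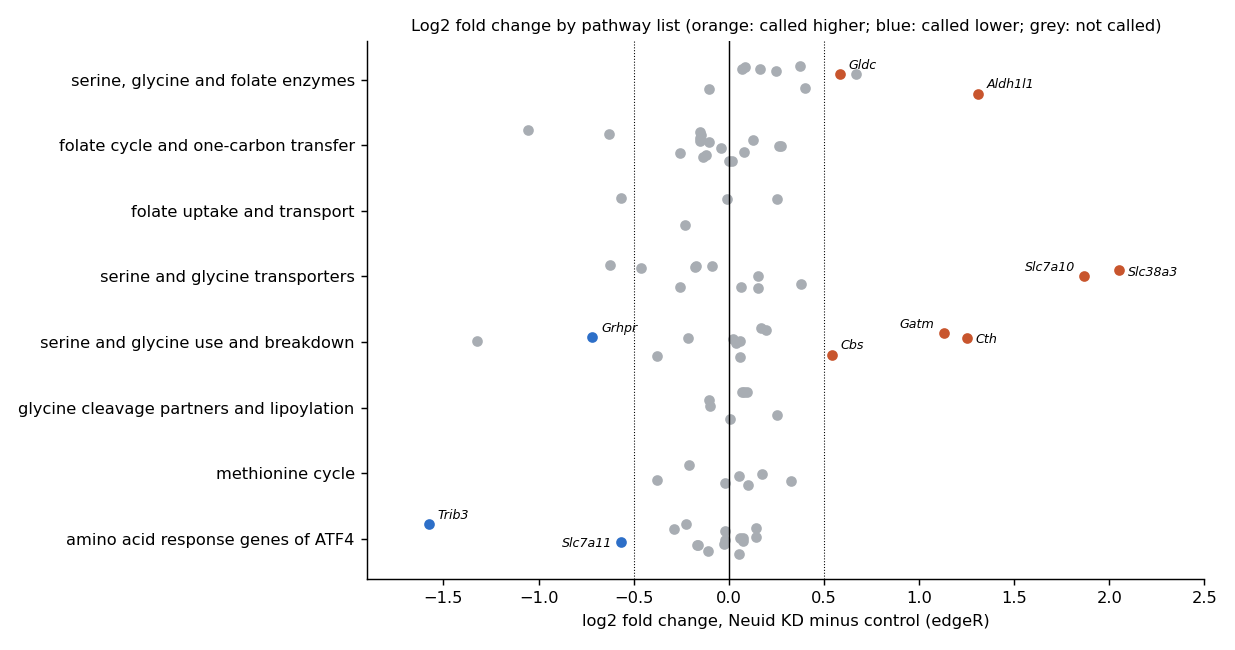
Log2 fold change of each tested gene (points) in the list of 10 enzymes and in 7 lists around it, with dotted lines at the fold threshold of 0.5 in either direction; orange marks genes called higher in *Neuid* KD, blue genes called lower, grey genes not called, and the height of a point within a row has no meaning. Genes called higher lie in 3 of the 8 rows, with *Slc38a3* at 2.05 farthest to the right and *Trib3* at -1.58 the farthest called gene to the left.

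The genes whose log2 CPM over the 12 libraries had the highest Pearson r with *Aldh1l1*, among 15205 genes of at least 1 CPM, were *Pla2g7* (r = 0.997), *Fabp7* (r = 0.997) and *Gja1* (r = 0.996). For *Gldc* they were *Elovl5* (r = 0.969), *Abhd3* (r = 0.960) and *Srebf1* (r = 0.960). These r values describe 12 libraries that fall into the 2 groups, so they hold the difference between the groups as well as the spread within them.

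**Figure D5:**
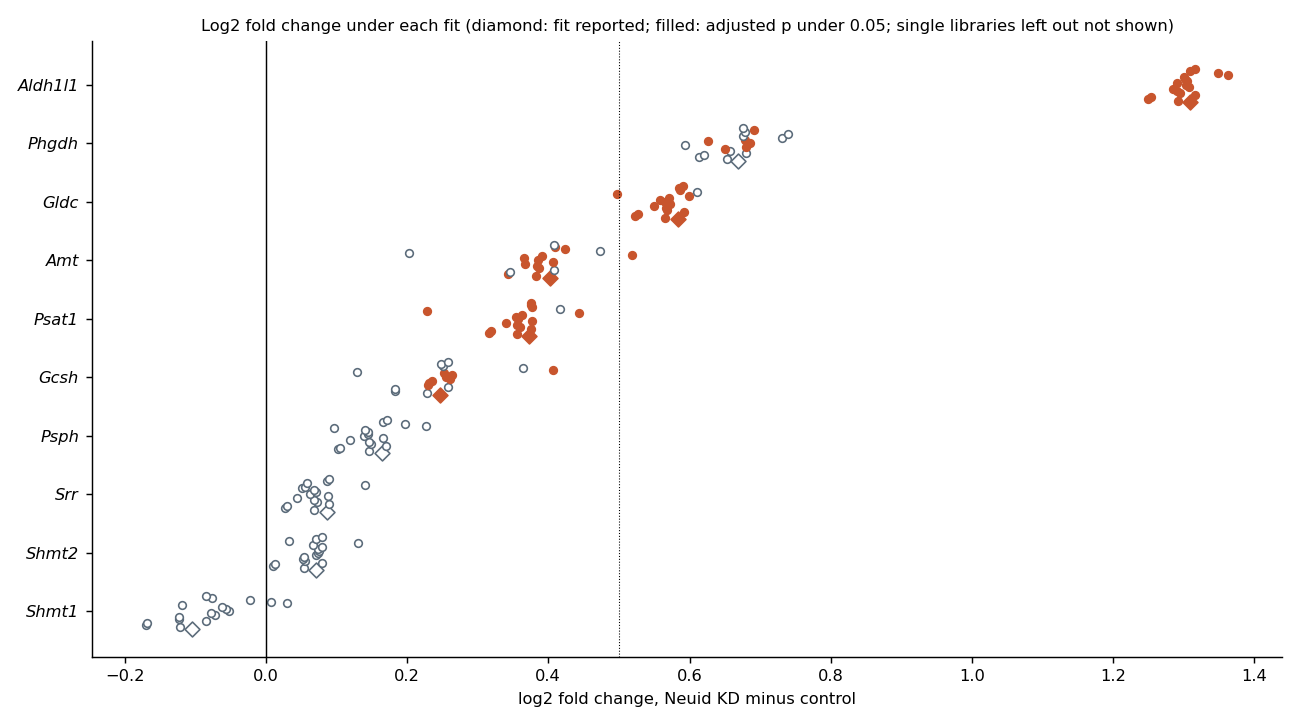
Log2 fold change of each enzyme (*Neuid* KD minus control) in the fit reported (diamonds) and in each other fit except those that leave out 1 library and the sum of *Phgdh* reads with its copies (circles), filled where the adjusted p was under 0.05; the dotted line is the fold threshold of 0.5. *Aldh1l1* stays between 1.25 and 1.36, and *Shmt1* lies on both sides of 0.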

How the data were processed

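RNA-seq was made from 6 control and 6 *Neuid* KD libraries with a stranded total RNA kit and single reads of 50 bases. The authors aligned the reads to mm10 with STAR and deposited raw read counts per gene from featureCounts, without normalization. Strand setting and treatment of multi-mapping reads are not given in the sources used here. Symbols, positions and exon lengths came from GENCODE M21, and 241 columns had no symbol.

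Genes were kept with filterByExpr, library totals over kept genes were scaled by TMM factors, and groups were compared with the quasi-likelihood test of edgeR 4.0.16 in R 4.3.3, with group as the only term. SEs were derived from the F statistic. Alternatives used other scalings, filters, DESeq2 1.42.0, limma 3.58.1, RUVs factors, the background reads, GC and length offsets, thinning, replicate blocks and left-out libraries. TMM factors over all genes and the summed *Phgdh* reads were added after the data were seen. Ratios used counts plus 0.5. Their intervals hold the differences that the exact test did not reject at 0.05. Other intervals are the estimate ± 1.96 SE.

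All 10 members were named, with called genes of the lists, partner genes of the ratios and genes needed to define a step. *Bola3*, *Mthfd1*, *Ggh*, *Slc1a4*, *Sfxn1*, *Sfxn3*, *Ahcyl1*, *Ahcyl2* and *Asns* were named after their values were seen, for an adjusted p under 0.05. The members and lists were chosen with earlier results of these data known. On simulated data of 19578 genes for this comparison, 84 of 100 genes changed by a log2 fold of 1.5 and 78 of 100 changed by 0.7 were recovered, with 3 false calls. Windows were compared with annotated transcripts only. Promoter sequences are from RefSeq (GRCm38.p6), with 1 or more entries for each of the 10 genes.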

Additional observations from a re-analysis of the deposited data

Results flagged for a closer look

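*Gldc* in the *Neuid* KD group had 1 library apart from the others: replicate 5 was lowest at 19.85 CPM, while the other 5 lay between 24.95 and 27.73 CPM, and the gap took 0.647 of the group's range. It was found among 30 groups of 6 libraries screened in this way, where chance flags about 1 in 20. Replicate 5 was the *Neuid* KD library nearest the control libraries and lay above all of them. Leaving it out was therefore bound to keep the groups for *Gldc* apart, which is no test of the difference. The log2 fold change was 0.65 without it and 0.58 with all libraries.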

How the results depend on the processing

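With each library left out in turn, 2 to 3 of the 10 enzymes were called higher and 0 lower. The log2 fold change then ranged from -1.87 to -1.74 for *Neuid*, from 1.26 to 1.33 for *Aldh1l1*, from 0.54 to 0.65 for *Gldc*, from 0.54 to 0.77 for *Phgdh* and from -0.18 to 0.02 for *Shmt1*. The log2 ratio of *Srr* to *Phgdh* differed by -0.75 to -0.43. No enzyme was called lower under any of the 32 alternatives, and *Neuid* and *Aldh1l1* kept their direction and their side of the threshold in all 29 of theirs. The number called higher, 2 as reported, was 1 within the lower-background libraries, 1 with offsets for GC content and length, 5 with no fold threshold, 4 at 0.3 and 1 at 1. With those offsets *Gldc* stood at 0.61 with an adjusted p of 0.0769 by edgeR. *Shmt1* changed sign, to 0.0294 in the lower-background libraries, to 0.007 with the offsets and to 0.0194 without control replicate 1. The difference in the log2 ratio of *Aldh1l1* to *Aldh1l2* was 1.61 within the lower-background libraries, too few for an exact test to reach 0.05. The cause of these shifts was not tested. *Phgdh* passed the test with DESeq2, RUVs factors, the background reads as a covariate, the replicate block, and without control replicate 4 or *Neuid* KD replicate 4, and *Gcsh* had an adjusted p over 0.05 in 18 of 29 alternatives. Same-numbered libraries did not all deviate together (r from -0.637 to 0.774). The highest r was for replicate 1, whose background reads were alike (control 652.9, *Neuid* KD 604.3 CPM). The lowest was for replicate 4, whose background reads were far apart (control 578.6, *Neuid* KD 49.52 CPM). Because r may reflect background reads, it cannot decide whether the numbers pair the samples. With the replicate block 3 enzymes were called higher, *Phgdh* at 0.69 (edgeR, adjusted p = 0.0402) among them, and *Gcsh* had an adjusted p of 0.0663. Over all genes, upper-quartile scaling called 389 higher and 218 lower (64.1% higher) where TMM called 477 and 155 (75.5%). Among the 10 enzymes, depth limits *Phgdh*, *Shmt1* and *Amt* most, at 33 to 255 reads per library.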
